A study of Mus musculus with 2 samples.

Results

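The cells described here are Il1b Cxcl2 high intermediate myeloid cells, 137 of 6601 kept CD45-positive kidney cells from a B6 mouse sample labelled aristolochic acid nephropathy, week 2. They were chosen by their own RNA: C1qa of at least 10 and under 40 unique molecular identifiers (UMIs, each marking 1 captured RNA molecule) per 10000 UMIs of the cell, Il1b and Cxcl2 together of at least 30 per 10000, no UMI of Cd3d, Cd3e or Cd3g, and Arg1, Mmp12, Lpl and Gpnmb together under 25 per 10000. Hashed sample 1 gave 45 of them, 1.44% of its kept cells (exact 95% interval 1.06 to 1.93), and hashed sample 2 gave 92, or 2.64% (2.13 to 3.23). They were set against 722 cells with the same C1qa range and the same Cd3 and Arg1 set limits but Il1b and Cxcl2 together under 30 per 10000, of which hashed sample 1 gave 306 and hashed sample 2 gave 416. These are called Il1b Cxcl2 low cells below, and the 137 cells are called Il1b Cxcl2 high cells.

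Aristolochic acid is a plant toxin that injures the proximal tubule and leads to chronic kidney disease. Viable CD45-positive leukocytes were sorted from digested kidney and captured as 1 single-cell library, in which antibody-borne hashtags 301 and 305 marked hashed samples 1 and 2. All cells, high and low alike, therefore came from diseased kidneys, and no untreated kidney was among the data used here. The labels give no genotype beyond B6, give neither age nor sex, and do not say whether the hashed samples were separate animals or pools. The title of the sample names W1, W2 and a single mouse, while its time label names only week 2. The names of the deposited matrices hold W2 with M1 for hashed sample 1 and W2 with M2 for hashed sample 2. The labels do not explain these letters, and they do not settle whether the hashed samples differ in time or in animal. Its protocol speaks of human kidneys although the genes are those of the mouse, and its cell type label, mesenchymal stem cells, goes against the sort and the RNA. In each pair of values below, the value of hashed sample 1 stands before that of hashed sample 2.

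Il1b encodes interleukin 1 beta, which is made as an inactive precursor and released after cleavage by the inflammasome, and Cxcl2 encodes a chemokine that attracts neutrophils through the receptor CXCR2. In macrophages, monocytes and dendritic cells both genes are switched on within hours of a danger or microbial signal, largely through NF-kappa B, together with immediate-early genes and with genes such as Nfkbia that shut the pathway down again. C1qa encodes a chain of complement C1q and is high in tissue macrophages, kidney macrophages included, and low in monocytes and most dendritic cells.

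Because the level of Il1b and Cxcl2 chose the cells, and both groups lay in 1 captured library, the ratios below are a description of these cells and no test was made. Intervals cover counting error only. The rule cut a continuous range. The 5 high cells nearest to the threshold held 30.0 to 30.7 UMIs of Il1b and Cxcl2 per 10000, and the 5 nearest low cells held 28.7 to 29.9. In all, 50 of the high cells lay under 45 per 10000 and 46 of the low cells lay at 20 or above. At most 2 C1qa UMIs were held by 5 and 13 of the high cells of hashed samples 1 and 2, so that their place in the C1qa range rests on very few molecules.

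The promoters of the genes that chose the cells, and of 3 genes of the same response that were higher in them, are shown because these genes were higher together in the cells. Each is the 250 bases before the RefSeq start (GRCm38.p6), in the direction of the gene. Capitals mark matches to the kappa B consensus, the 10-letter sequence bound by NF-kappa B, in Cxcl2, Cxcl1 and Nfkbia, and the letters TATAAA in Il1b.
Il1b (chr2:129371140-129371389, minus strand): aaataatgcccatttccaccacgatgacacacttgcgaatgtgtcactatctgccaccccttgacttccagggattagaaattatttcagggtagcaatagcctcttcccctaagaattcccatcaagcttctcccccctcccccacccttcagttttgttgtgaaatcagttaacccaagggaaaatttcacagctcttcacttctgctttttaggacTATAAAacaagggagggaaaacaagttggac
Cxcl2 (chr5:90903649-90903898, plus strand): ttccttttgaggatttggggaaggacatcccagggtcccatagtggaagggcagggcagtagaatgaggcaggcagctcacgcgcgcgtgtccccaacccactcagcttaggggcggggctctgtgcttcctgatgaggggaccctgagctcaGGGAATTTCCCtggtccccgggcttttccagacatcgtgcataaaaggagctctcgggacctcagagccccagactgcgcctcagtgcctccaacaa
Cxcl1 (chr5:90890995-90891244, plus strand): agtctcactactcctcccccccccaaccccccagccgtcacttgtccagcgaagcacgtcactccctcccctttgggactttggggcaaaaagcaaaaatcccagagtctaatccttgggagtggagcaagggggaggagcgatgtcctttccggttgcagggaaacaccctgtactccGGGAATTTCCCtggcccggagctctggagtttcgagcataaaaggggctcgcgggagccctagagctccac
Nfkbia (chr12:55492648-55492897, minus strand): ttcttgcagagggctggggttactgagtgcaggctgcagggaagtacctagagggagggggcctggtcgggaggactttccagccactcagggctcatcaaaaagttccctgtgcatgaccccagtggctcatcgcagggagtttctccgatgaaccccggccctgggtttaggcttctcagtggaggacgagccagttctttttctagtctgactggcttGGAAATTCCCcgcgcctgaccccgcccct
Ptgs2 (chr1:150099781-150100030, plus strand): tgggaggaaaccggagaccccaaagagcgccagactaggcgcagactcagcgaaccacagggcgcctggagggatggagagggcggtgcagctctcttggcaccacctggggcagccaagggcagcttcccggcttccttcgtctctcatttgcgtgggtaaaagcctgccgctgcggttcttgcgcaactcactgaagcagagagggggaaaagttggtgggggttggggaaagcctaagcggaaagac
Of 32851 promoter windows of the same length, 7.25% held a match to the kappa B consensus on either strand and 12.4% held TATAAA. In Cxcl2 and in Cxcl1 the matches on the opposite strands overlapped, starting 97 and 96 bases before the start in Cxcl2 and 71 and 70 bases before it in Cxcl1, and in Nfkbia the match began 29 bases before the start. The letters TGANTCA, the AP-1 site bound by Fos and Jun proteins, were found in 6.75% of the windows and in none of these 5. The Ptgs2 window matched none of the 3 motifs, and the Il1b window held no match to the kappa B consensus. A match is a run of letters and no evidence of binding.

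**Figure D1:**
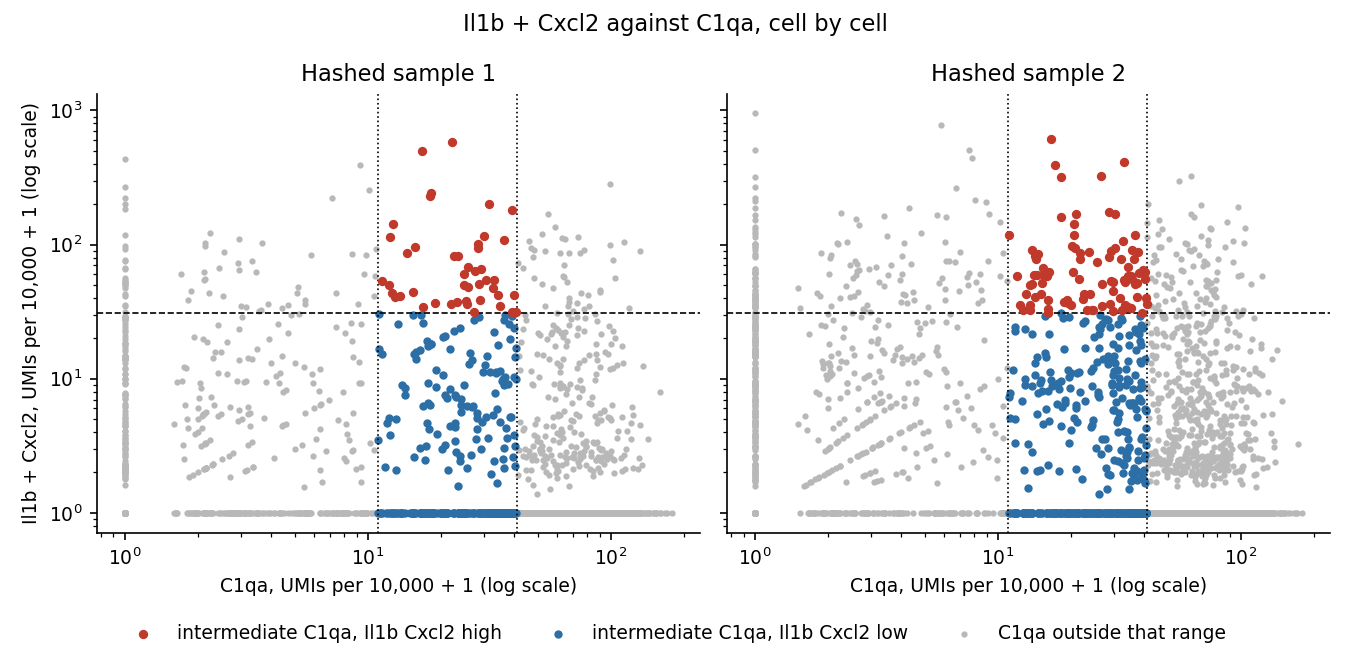
Level of Il1b and Cxcl2 together against the level of C1qa in each cell, both as UMIs per 10000 plus 1 on log axes, for hashed samples 1 and 2. Red points are the 45 and 92 Il1b Cxcl2 high cells, blue points the 306 and 416 low cells of the same C1qa range, grey points cells with less or more C1qa; the dashed and dotted lines are the limits of the rule, and no gap separates red from blue.

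Among intermediate C1qa cells, the share that was Il1b Cxcl2 high was 12.8% (95% interval 9.51 to 16.8, 45 of 351) for hashed sample 1 and 18.1% (14.9 to 21.7, 92 of 508) for hashed sample 2. In the high C1qa range, at 40 or more C1qa UMIs per 10000, the share with as much Il1b and Cxcl2 was 4.60% (3.36 to 6.12) and 6.69% (5.46 to 8.11). In the low C1qa range, under 10 per 10000, it was 10.7% (8.40 to 13.4) and 18.4% (15.7 to 21.2). The levels that chose the cells also make these shares, so they are a description with no test. On either side of the limit of 40 the intervals overlapped: the share was 8.33% (4.07 to 14.8) and 14.4% (9.83 to 19.96) at C1qa of 30 to under 40 per 10000, and 4.93% (2.79 to 8.01) and 8.52% (6.21 to 11.3) at 40 to under 60. Hashed sample 2 held the larger share in each of the 3 ranges. The share of cells of a class depends on digestion and on the gates of the sort, and their part in it was not tested.

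The labelled myeloid character held in the RNA. Lyz2, encoding the lysozyme of macrophages and monocytes, stood at 15462 and 15008 CPM (UMIs of the gene scaled to a common total of all UMIs summed in the group) in high cells, against 14315 and 13563 CPM in low cells. A UMI of Lyz2 was found in 45 of 45 and 90 of 92 high cells. C1qb, another chain of C1q, stood at 3430.3 and 3845 CPM in high cells and 3804 and 4026 CPM in low cells, and C1qa, which set the range, at 2353 and 2461 CPM against 2578 and 2684 CPM. The T cell list of 8 genes summed to 44.0 and 31.3 CPM in high cells, and to 57.1 and 32.3 CPM in low cells, which the rule lowered, since it barred the Cd3 genes of that list. Cells were of like depth, with medians of 7052 and 7077 UMIs in high cells and of 5725 and 6768.5 UMIs in low cells.

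The 137 cells reached the limit by different mixes of Il1b and Cxcl2. A rule on the sum favours cells with much of either gene, so the mixes describe the choice and no relation between the genes. Il1b had a median of 26.6 UMIs per 10000 (range 0 to 259) in the high cells of hashed sample 1 and 24.4 (0 to 485) in those of hashed sample 2, while its median was 0 in the low cells of both. Cxcl2 had medians of 35.7 (0 to 411) and 31.5 (0 to 372) in high cells, again with medians of 0 in low cells. Cxcl2 alone reached 30 per 10000 in 20 and 34 high cells, Il1b alone did so in 14 and 25, both did so in 7 and 15, and 4 and 18 cells passed on the sum only. No Il1b UMI was found in 7 and 13 of the high cells, and no Cxcl2 UMI in 8 and 12. Cxcl2 exceeded Il1b in 60% (44.3 to 74.3) and 60.9% (50.1 to 70.9) of them.

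**Figure D2:**
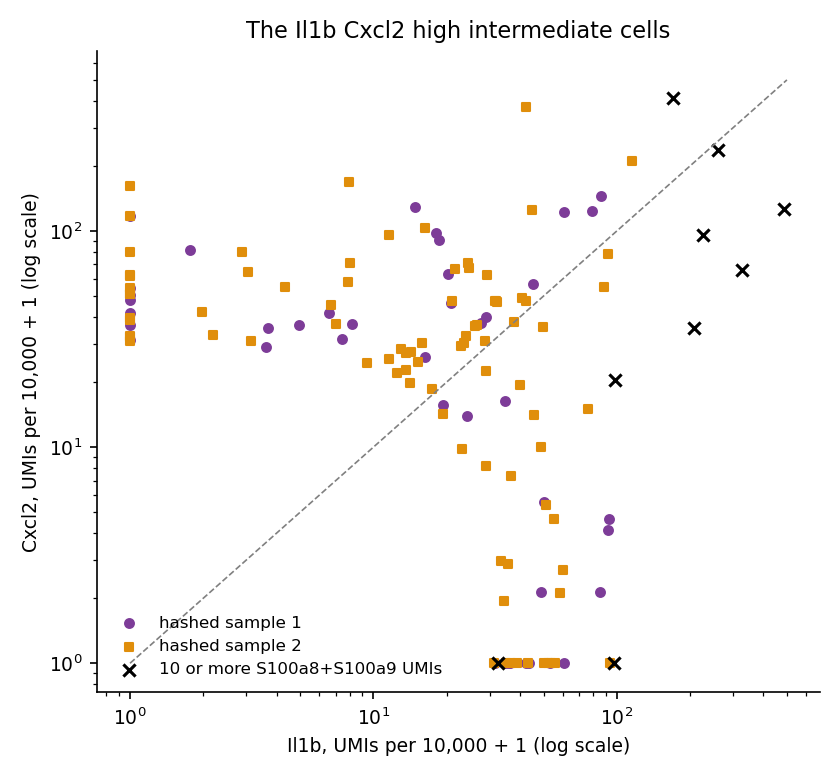
Cxcl2 against Il1b in each of the 137 Il1b Cxcl2 high cells, as UMIs per 10000 plus 1 on log axes, circles for hashed sample 1 and squares for hashed sample 2. Points above the dashed line of equal levels are the 60% and 60.9% of cells with more Cxcl2, points on the axes at 1 have no UMI of that gene, and crosses are the 9 cells with 10 or more S100a8 and S100a9 UMIs.

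Summed over cells, Il1b stood at 3186 and 2751 CPM in high cells, against 182 and 213 CPM in low cells, and Cxcl2 at 4416 and 3686 CPM against 248 and 287 CPM. Tnfsf9 encodes 4-1BB ligand, a costimulator of T cells. It stood at 464 and 330.5 CPM in high cells and 51.8 and 107 CPM in low cells, which is 8.95-fold (6.86 to 11.7) and 3.10-fold (2.59 to 3.70) higher, from UMIs in 22 and 45 high cells. Ptgs2 encodes cyclooxygenase 2, the inducible enzyme of prostaglandin synthesis. It stood at 156 and 127 CPM in high cells and 9.42 and 27.4 CPM in low cells, 16.5-fold (9.40 to 30.3) and 4.62-fold (3.36 to 6.37) higher, but its UMIs lay in only 7 and 23 high cells and 17.6% of them in 1 cell. Both genes were higher in hashed samples 1 and 2, and for both the ratio was larger in hashed sample 1, where low cells had less.

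A share of cells with a UMI shows the same order once depth is set equal. After thinning each cell to 1000 UMIs, Tnfsf9 was found in 18.6% (8.39 to 33.4) and 23.8% (15.2 to 34.3) of high cells, against 4.76% (2.56 to 8.01) and 8.27% (5.69 to 11.5) of low cells, leaving out 2 and 8 shallower high cells and 33 and 41 shallower low cells. Unthinned shares of Tnfsf9 were 48.9% and 48.9% of high cells and 14.7% and 25.2% of low cells. In the cells with Cd3 UMIs, whose few Tnfsf9 UMIs can come from free RNA, the thinned shares were 1.45% and 0.779%, and 7.26% and 4.15% before thinning, at medians of 4145 and 3695.5 UMIs. Ptgs2 was found in 9.30% (2.59 to 22.1) and 10.7% (5.02 to 19.4) of thinned high cells and 0.733% (0.0888 to 2.62) and 2.40% (1.10 to 4.51) of thinned low cells, against 0.242% and 0.260% of Cd3 cells. Unthinned shares of Ptgs2 were 15.6% and 25% of high cells, 2.61% and 5.29% of low cells, and 0.726% and 0.518% of Cd3 cells.

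Across all genes, 2740 were measured, with at least 50 CPM in high or low cells of each hashed sample. Of these, 92 genes (3.36%) were at least 1.5-fold higher in high cells in both hashed samples, on log2 values with 10 CPM added, and 33 genes (1.2%) were at least 1.5-fold lower. The 92 include Il1b and Cxcl2. The median log2 ratio of all measured genes was -0.02 and -0.03. Taken as a mean over cells in place of a sum, 144 genes (4.69% of 3070 measured) were higher and 126 (4.10%) lower. With a limit of 20 CPM in place of 50, 118 were higher and 104 lower, of 5565. With no limit beyond 1 UMI, 136 were higher and 210 lower, of 13378. The excess of higher genes therefore depends on these choices. Outside the genes of the rule, the 15 highest ratios belonged to S100a9, S100a8, Retnlg, Cxcl1, Gadd45b, Ptgs2, Cd83, Tnfsf9, Slc7a11, Areg, Osm, Nr4a1, Csrnp1, Fos and Nfkbiz.

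**Figure D3:**
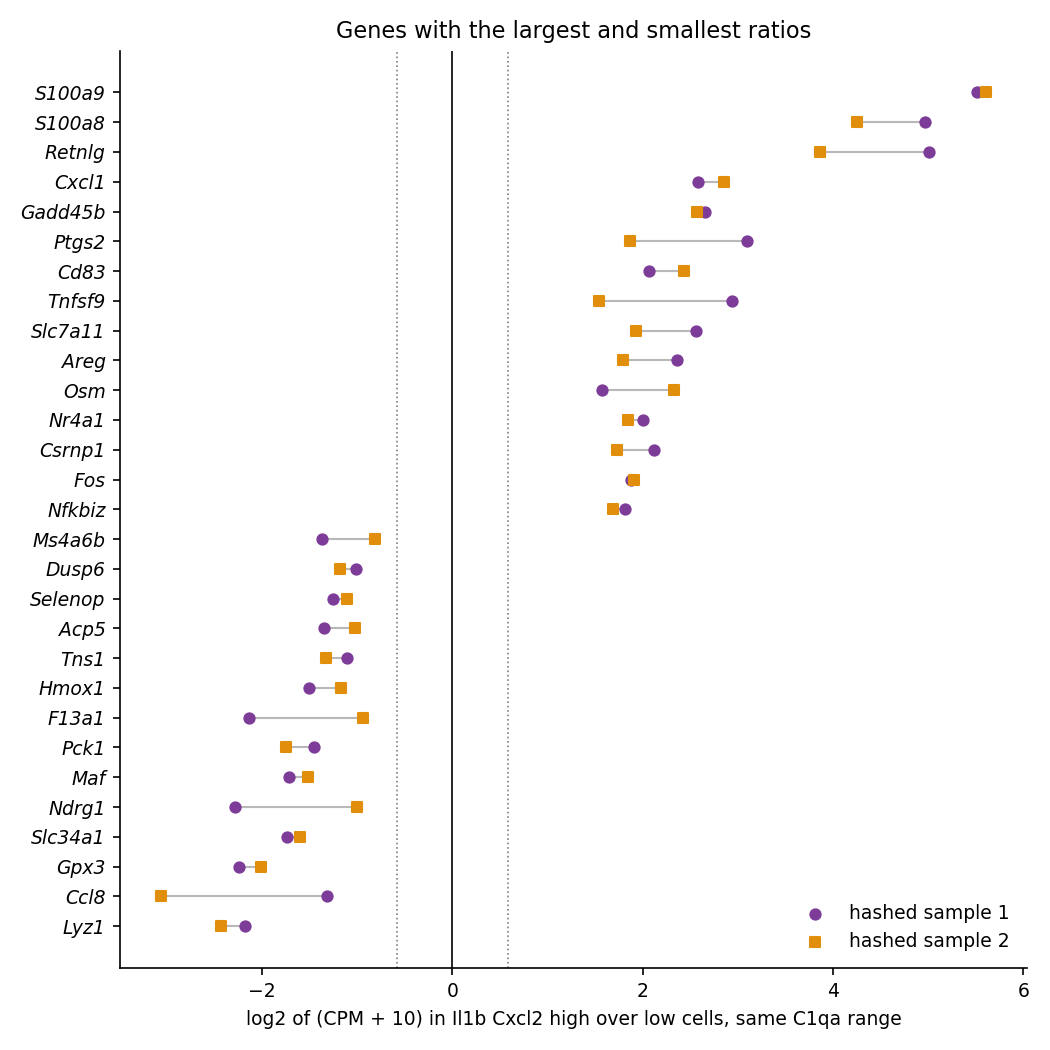
Log2 ratio of Il1b Cxcl2 high over low cells of the same C1qa range, on CPM plus 10, for the 15 highest genes by mean ratio and 14 of the 15 lowest, circles for hashed sample 1 and squares for hashed sample 2. Dotted lines mark 1.5-fold; S100a9, S100a8 and Retnlg at the top lie almost wholly in 9 droplets, and each gene shown passes 1.5-fold the same way in both hashed samples.

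The 3 genes at the top, S100a9, S100a8 and Retnlg, are neutrophil genes, and nearly all of their UMIs lay in 9 droplets. S100a9 stood at 471 and 493 CPM in high cells, against 0.523 and 0.351 CPM in low cells, and Retnlg at 312 and 135 CPM against 0 UMIs in low cells. All of the neutrophil list summed to 1209 and 914 CPM in high cells, where 3 of its 11 genes had no UMI in each hashed sample, against 50.2 and 38.2 CPM in low cells. The 9 droplets, 3 in hashed sample 1 and 6 in hashed sample 2, held 251 UMIs of S100a8, 469 of S100a9 and 183 of Retnlg at a median of 1412 UMIs per cell, with 21 UMIs of C1qa, 8 of H2-Aa and none of Tnfsf9, Il1a, Areg or Cxcl1. The other 128 high cells, at a median of 7274.5 UMIs, held 1 UMI of S100a8, 1 of S100a9 and none of Retnlg. Low cells included 0 such droplets. In a choice made after the values were seen, leaving out these droplets gave 88 higher and 32 lower genes (3.23% and 1.17% of 2725 measured), 86 of the 92 higher genes remaining. It left Tnfsf9 at 471 and 334 CPM, Il1b at 2915 and 2568 CPM and Cxcl2 at 4160 and 3678 CPM in high cells.

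Among the other ligands, the chemokines split. Cxcl1, which like Cxcl2 attracts neutrophils, stood at 122 and 138 CPM in high cells and 12.04 and 10.5 CPM in low cells, 10.1-fold (5.84 to 17.9) and 13.2-fold (8.63 to 20.6) higher, from UMIs in 4 and 14 cells. Of 12 measured members of the list of other chemokines, 3 were higher and 2 lower. Ccl4, a chemokine that attracts monocytes and T cells, stood at 599 and 1218 CPM in high cells and 186 and 351 CPM in low cells, Ccl3 at 227 and 497 CPM against 123 and 179.6 CPM, and Ccl2, the ligand of the monocyte receptor CCR2, at 576 and 1356 CPM against 294 and 442 CPM. Ccl8 stood at 16.9 and 10.4 CPM in high cells and 57.1 and 160.0 CPM in low cells, and Pf4 at 67.7 and 188 CPM against 164 and 348 CPM. For Ccl17, which attracts CCR4-bearing T cells, the hashed samples went opposite ways, with 67.7 and 359 CPM in high cells against 469 and 211 CPM in low cells.

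Among the cytokines, Osm, which encodes oncostatin M, stood at 112 and 214 CPM in high cells and 30.9 and 34.7 CPM in low cells. Areg, encoding the epidermal growth factor receptor ligand amphiregulin, stood at 57.6 and 62.5 CPM against 3.14 and 10.9 CPM, but only 2 and 7 high cells held a UMI of it. Tnf stood at 94.8 and 90.8 CPM in high cells and 19.4 and 42.4 CPM in low cells. Of the interleukin 1 list, 2 of 3 measured genes were higher, against 3 of 8 at a limit of 20 CPM and 4 of 15 with no limit beyond 1 UMI. The 2 were Il1rn, whose product blocks the interleukin 1 receptor, at 213 and 90.8 CPM in high cells and 37.7 and 34.03 CPM in low cells, and Nlrp3, the sensor of an inflammasome, at 186 and 138 CPM against 51.3 and 49.8 CPM. Pycard, the inflammasome adaptor, was the third, with 254 and 293 CPM against 275 and 285 CPM. Il1a, encoding interleukin 1 alpha, was under the 50 CPM limit in hashed sample 2, with 119 and 40.2 CPM in high cells and 3.66 and 1.40 CPM in low cells. Il6 stood at 44.0 and 8.93 CPM in high cells and 9.94 and 1.40 CPM in low cells, Il12b had no UMI in high cells (3 UMIs would make 10.2 and 4.47 CPM), and Il10 stood at 6.77 and 1.49 CPM against 1.05 and 0.702 CPM.

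Genes of the NF-kappa B pathway were higher as a group, 11 of 14 measured with a median log2 ratio of 1.47 and 1.18. The list was made of feedback genes and subunits of the pathway. Nfkbia, encoding I kappa B alpha, stood at 1226 and 1076 CPM in high cells and 376 and 355 CPM in low cells. Tnfaip3, encoding the deubiquitinase A20, stood at 176 and 188 CPM against 59.7 and 46.7 CPM, Nfkbiz at 308 and 307 CPM against 80.6 and 88.1 CPM, and Zfp36, whose product speeds the decay of cytokine messages, at 1514 and 1501 CPM against 502 and 554 CPM. Among subunits, Rel stood at 234 and 197 CPM in high cells and 95.3 and 91.6 CPM in low cells, while Nfkb1 stood at 91.4 and 104 CPM against 104 and 102 CPM. Birc3 and Sod2 were the other measured genes that did not reach 1.5-fold. As single cells the list overlapped, with a median of 56.3 (range 4.67 to 154) and 47.9 (12.3 to 190.0) UMIs per 10000 in high cells and 17.5 (0 to 91.5) and 14.99 (0 to 138) in low cells.

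Immediate-early genes, transcription factors and phosphatases induced within minutes of a signal, also by enzymatic digestion of tissue, were higher for 14 of 17 measured, with a median log2 ratio of 1.14 and 1.35. At a limit of 20 CPM 19 of 22 were higher. Of all genes measured at 50 CPM 3.36% were higher and 1.2% lower. Fos stood at 2543 and 2505 CPM in high cells and 686 and 660.2 CPM in low cells, Junb at 2140 and 1972 CPM against 809 and 767 CPM, Egr1 at 383 and 473 CPM against 155 and 160.0 CPM, and Dusp1, a phosphatase of stress kinases, at 1588 and 1506 CPM against 491 and 508 CPM. Jun, Egr2 and Ier5 did not reach 1.5-fold in both. Of 9 measured heat shock genes 0 were higher and 0 lower, which in a list this short is near the share of all genes. Hspa1a stood at 163 and 235 CPM in high cells and 281 and 249 CPM in low cells. The immediate-early and heat shock lists together had a median of 194 and 179.9 UMIs per 10000 in high cells and 74.2 and 79.4 in low cells. Their part in the other differences was not tested. Among cells at or above the median of that sum, 41 and 87 high and 116 and 186 low cells, 60 genes (2.25% of 2672 measured) were higher and 15 (0.561%) lower. NF-kappa B genes were then higher for 8 of 14 and immediate-early genes for 7 of 18. The split used the immediate-early genes themselves, so that their smaller count is partly set by it. Of the 32 named genes counted in all cells, which include Il1b and Cxcl2 of the rule, 24 were still counted. The others were Acp5, Ccl8, F13a1, Ms4a6b, Ndrg1, Selenop, Slc34a1 and Tns1. There, Tnfsf9 stood at 505 and 330.1 CPM in high cells and 87.4 and 184 CPM in low cells and Nfkbia at 1261 and 1096 CPM against 562 and 528 CPM. Below that median lay only 4 and 5 high cells, in which the hashed samples went opposite ways for Tnfsf9, with 0 and 346 CPM in high cells and 24.2 and 28.2 CPM in low cells.

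Of the pattern recognition list, 4 of 5 measured receptors were higher, where 3.36% of all measured genes were. A gene could reach the 50 CPM limit through the high cells alone, so that this share depends on the limit. At 20 CPM 4 of 12 genes of the list were higher, and with no limit beyond 1 UMI 4 of 16. The median log2 ratio, averaged over both hashed samples, was 1.13 at 50 CPM, 0.157 at 20 CPM and 0.092 with no such limit. Cd14, the coreceptor for bacterial lipopolysaccharide, stood at 1757 and 1710 CPM in high cells and 527 and 567 CPM in low cells, 3.33-fold and 3.02-fold. Tlr2 stood at 244 and 183 CPM against 102 and 81.4 CPM, Clec4e, encoding the lectin Mincle, at 152 and 67.0 CPM against 48.2 and 20.7 CPM, and Clec4n, encoding Dectin-2, at 461 and 488 CPM against 265 and 302 CPM. The fifth, Tlr13, stood at 54.2 and 41.7 CPM in high cells and 50.2 and 53.7 CPM in low cells. Of the costimulation list 2 of 5 were higher, and 2 of 7 at a limit of 20 CPM. The 2 were Cd83, a surface protein of activated antigen-presenting cells, at 484 and 499 CPM against 108 and 83.8 CPM, and the adhesion molecule Icam1 at 173 and 186 CPM against 70.1 and 49.5 CPM. Cd86 stood at 108 and 115 CPM in high cells and 83.7 and 68.8 CPM in low cells, short of 1.5-fold in hashed sample 1.

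**Figure D4:**
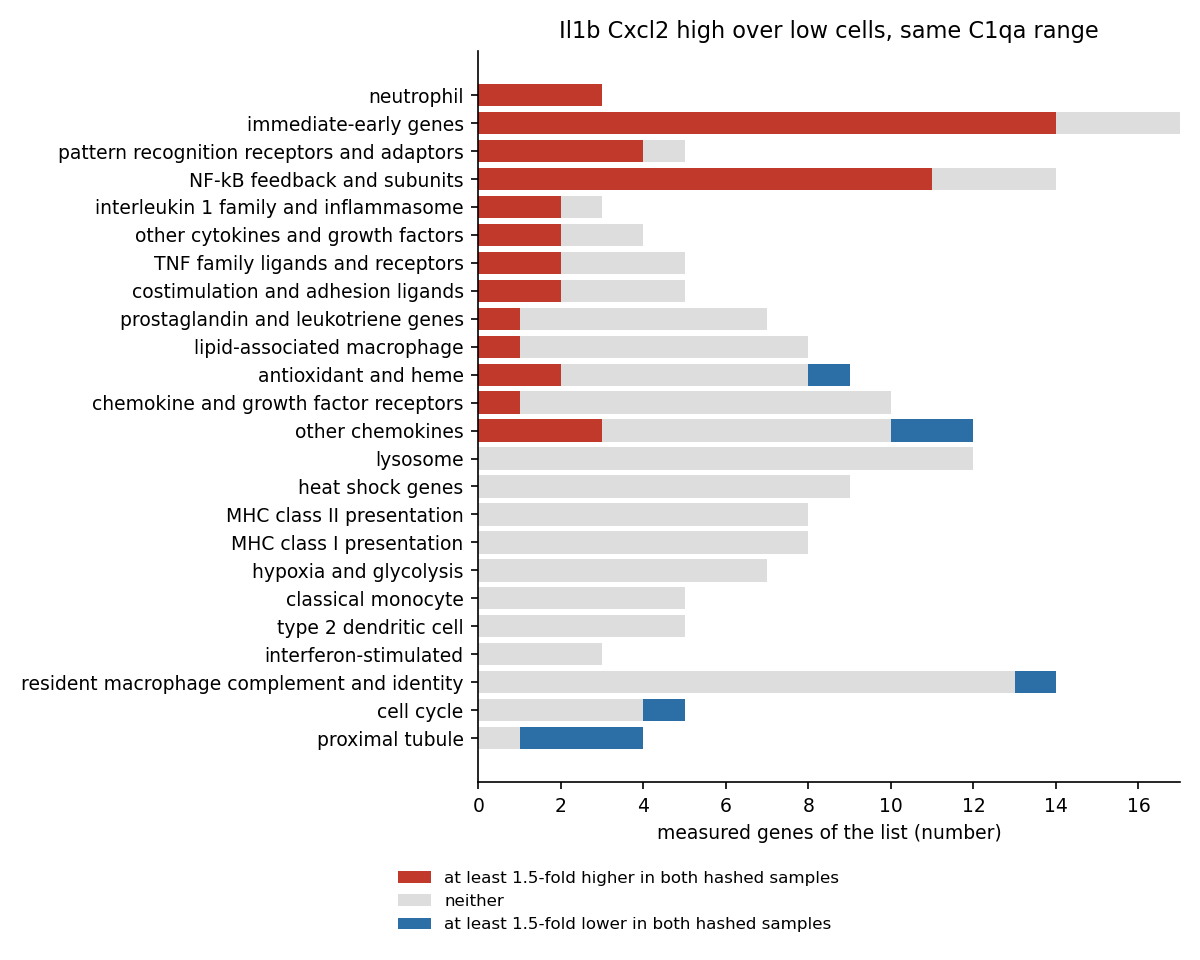
Number of measured genes of each list that were at least 1.5-fold higher (red), neither (grey) or at least 1.5-fold lower (blue) in Il1b Cxcl2 high than in low cells in both hashed samples, for lists with 3 or more measured genes. Immediate-early genes (14 of 17) and NF-kappa B genes (11 of 14) hold most of the red, and MHC class II, MHC class I, lysosome and heat shock genes hold none. Of all measured genes 3.36% were higher and 1.2% lower, so that none in lists this short is near the general share. A gene could be measured through the high cells alone.

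No measured gene of antigen presentation or of the lysosome was counted as higher or lower. Of 8 measured genes of MHC class II presentation 0 passed 1.5-fold, with H2-Aa at 8069 and 7839 CPM in high cells and 7703 and 7100 CPM in low cells and Cd74 at 19434 and 21726 CPM against 19172 and 20197 CPM. None of 8 MHC class I genes and none of 12 lysosome genes passed either. Of all measured genes 3.36% were higher and 1.2% lower, so that 0 in lists this short is near the general share. Among 14 measured genes of macrophage identity, Maf was lower, with 67.7 and 103 CPM in high cells and 245.5 and 312 CPM in low cells. Maf encodes a transcription factor of resident macrophages. The list had a median log2 ratio of -0.31 and -0.25, with Apoe at 10348 and 5969 CPM against 13265 and 8995 CPM. Selenop stood at 268 and 268 CPM in high cells and 651 and 588 CPM in low cells, 0.411-fold (0.323 to 0.516) and 0.456-fold (0.389 to 0.532), and F13a1, encoding a coagulation factor XIII subunit, at 13.5 and 35.7 CPM against 93.7 and 77.9 CPM. Hmox1, encoding heme oxygenase 1, stood at 54.2 and 78.9 CPM in high cells and 172 and 190.1 CPM in low cells.

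Several of the genes that were lower in high cells belong to the kidney tubule. Gpx3 stood at 84.7 and 99.7 CPM in high cells and 439 and 433 CPM in low cells, and Slc34a1, the phosphate transporter of the proximal tubule, at 16.9 and 11.9 CPM against 80.1 and 56.5 CPM. The proximal tubule list of 8 genes summed to 163 and 469 CPM in high cells, where Slc34a1 was present and 2 and 0 of its genes had no UMI, and to 859 and 948 CPM in low cells. Droplets with at least 20 UMIs of the list per 10000 were 1 of 45 and 9 of 92 high cells, against 36 of 306 and 46 of 416 low cells. Without them, a choice made after the values were seen, 91 genes (3.35% of 2713 measured) were higher and 23 (0.848%) lower. Slc34a1 then stood at 13.6 and 12.6 CPM in high cells and 8.47 and 11.7 CPM in low cells. Gpx3 was then at 74.8 and 77.0 CPM against 127 and 121 CPM and Maf at 68.0 and 102 CPM against 205 and 288 CPM.

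Set beside cells with more or less C1qa, most of the genes higher in the intermediate range were higher there too. With Il1b Cxcl2 high cells set over low cells in the same way, 129 of 2681 measured genes (4.81%) were higher in the high C1qa range and 136 of 2662 (5.11%) in the low C1qa range. Of the 92 genes higher in the intermediate range, 72 were also higher in the high C1qa range and 72 in the low C1qa range, 78.3% of the 92 in each case and 55.8% and 52.9% of the genes higher there. In all 3 ranges 65 were higher, among them Tnfsf9, Ptgs2, Cd83, Cd14, Nfkbia, Tnfaip3, Fos and Nlrp3. Of the 33 lower genes, 12 were shared with each of the other ranges, 36.4% of the 33 and 16.9% of the 71 genes lower in the high C1qa range (2.65% of those measured) and 32.4% of the 37 lower in the low C1qa range (1.39%). The 3 ranges share no cells, but Il1b and Cxcl2 chose the cells in each, so that the overlap is partly set by the rule.

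The levels of Cxcl2 and Il1b in each range, like C1qa, were used by the rule and are given as a description. In Il1b Cxcl2 high cells of the low C1qa range Il1b stood at 5184 and 4950 CPM and Cxcl2 at 1254 and 2468 CPM, while in those of the intermediate range Cxcl2 (4416 and 3686 CPM) exceeded Il1b (3186 and 2751 CPM), as in those of the high range (Cxcl2 at 4069 and 4651 CPM, Il1b at 3030.0 and 2661 CPM). For Il1b the intermediate and high ranges lay close together, and the low range lay above both. For Cxcl2 the intermediate and high ranges overlapped, and the low range lay below both. Cells picked by Cd209a, a gene of type 2 dendritic cells, had Il1b at 1349 and 1171 CPM and Cxcl2 at 216 and 169.8 CPM, and cells picked by the monocyte genes Ly6c2, Chil3 and Plac8 had Il1b at 1597 and 1973 CPM and Cxcl2 at 92.3 and 164 CPM. In the cells with Cd3 UMIs, Il1b stood at 28.6 and 62.2 CPM and Cxcl2 at 14.9 and 52.6 CPM. Droplets with neutrophil RNA were 3 of 45 and 6 of 92 of the intermediate high cells, 0 of those of the high range, and 7 of 67 and 10 of 145 of those of the low range. Without them, an alternative added after the values were seen, Il1b in the low range stood at 4869 and 4688 CPM and Cxcl2 at 1207 and 2247 CPM, and in the intermediate range Il1b stood at 2915 and 2568 CPM and Cxcl2 at 4160 and 3678 CPM.

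**Figure D5:**
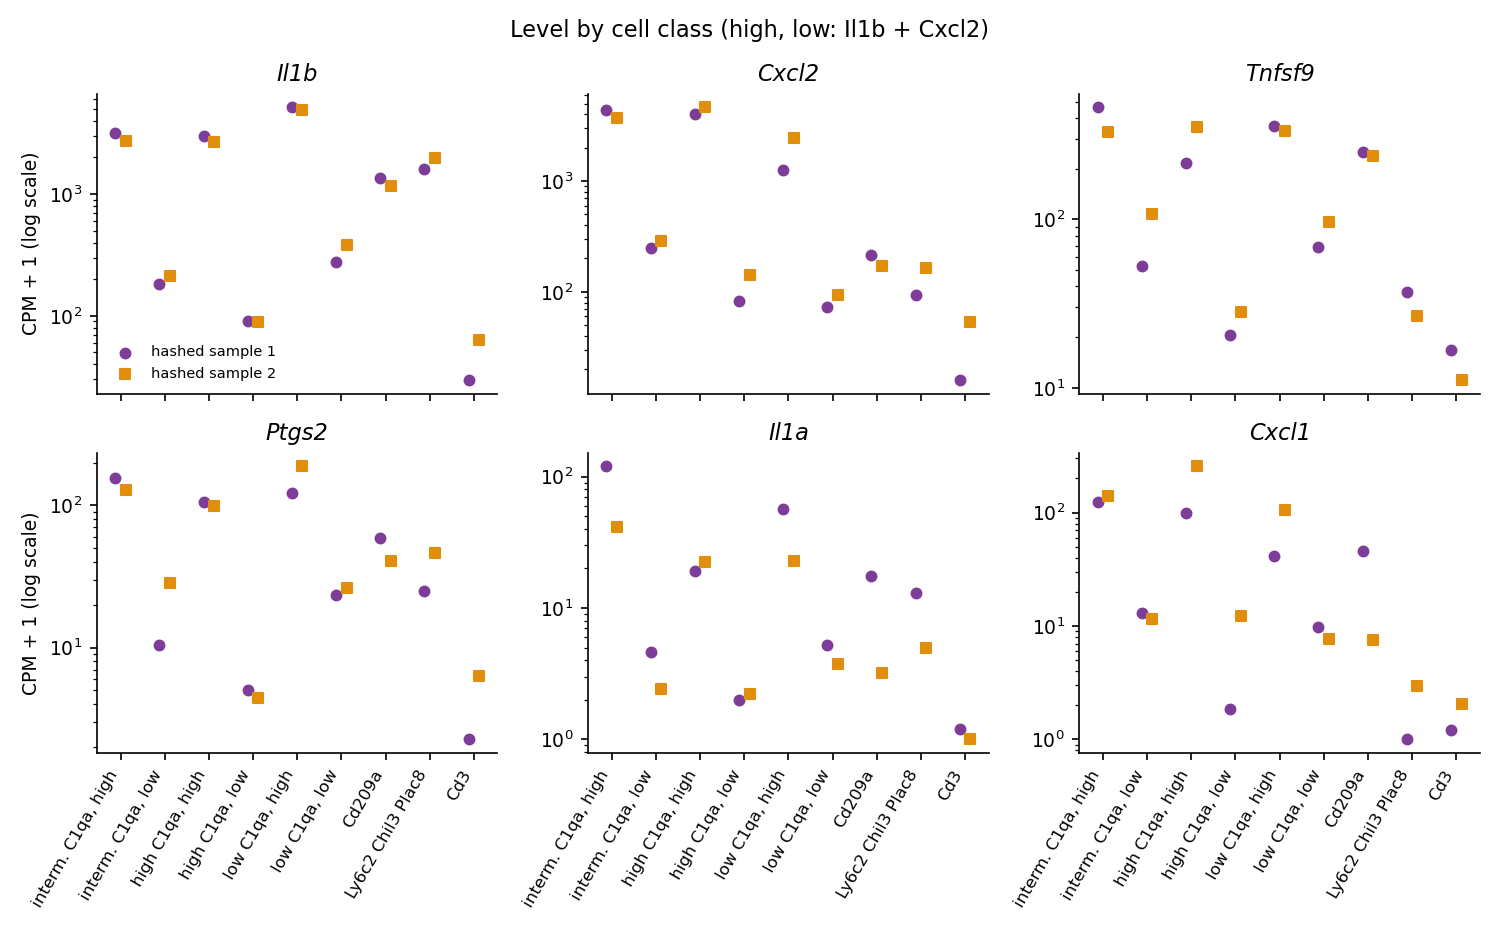
Summed level of 6 genes in 9 cell classes, as CPM plus 1 on log axes, circles for hashed sample 1 and squares for hashed sample 2, with high and low in the names standing for Il1b and Cxcl2 together. Il1b is highest in the low C1qa high cells (5184 and 4950 CPM), while Cxcl2, Tnfsf9, Ptgs2 and Cxcl1 in the intermediate high cells lie within or near the values of the other high classes.

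Tnfsf9 in Il1b Cxcl2 high cells overlapped across the ranges of C1qa. Tnfsf9 stood at 464 and 330.5 CPM in the intermediate range, 216 and 351 CPM in the high range and 359 and 332 CPM in the low range, and cells picked by Cd209a had 250.5 and 236 CPM. Ptgs2 stood at 156 and 127 CPM, 105 and 98.5 CPM, and 121 and 187 CPM in the same 3 ranges. Areg had 57.6 and 62.5 CPM in the intermediate range and 59.4 and 46.3 CPM in the low range, but no UMI in hashed sample 1 and 2.86 CPM in hashed sample 2 in the high range. Il1a stood at 119 and 40.2 CPM in the intermediate range, 18.04 and 21.4 CPM in the high and 55.2 and 21.7 CPM in the low range. The intermediate range was highest within each hashed sample, but its values overlapped those of the low range. They rest on 62 UMIs in 17 of the 128 intermediate high cells without neutrophil RNA, and in hashed sample 2 they lay under the 50 CPM limit.

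For MHC class II the intermediate high cells lay between the dendritic and the monocyte classes. They lay close to the low cells of the same C1qa range, with a median log2 ratio of -0.08 and 0.09 over 8 measured genes, so that this place is not particular to them. The MHC class II list summed to 45074 and 48481 CPM in the intermediate high cells, 83552 and 84038 CPM in Cd209a cells and 20881 and 19366 CPM in Ly6c2 Chil3 Plac8 cells. Cd209a stood at 125 and 38.7 CPM in the intermediate high cells, against 24.1 and 60.3 CPM in the low cells, and Mgl2, a lectin of type 2 dendritic cells and some macrophages, at 406 and 1259 CPM against 713 and 1229 CPM. Plac8 stood at 16.9 and 4.47 CPM in the intermediate high cells, where Ly6c2 Chil3 Plac8 cells had 1250.3 and 1536 CPM. Plac8 helped to pick the latter cells, so that this gap is partly set by their rule. Of 5 measured genes of the classical monocyte list, 0 were higher and 0 lower in the intermediate high than in the low cells. That is near the share of all measured genes, 3.36% higher and 1.2% lower. Ccr2, the receptor that brings monocytes into tissue, stood at 880.4 and 1204 CPM in the intermediate high cells and 874 and 1195 CPM in the low cells, and at 541 and 721 CPM in the high cells of the high C1qa range. Of 10 genes of long-lived macrophages only 2 reached the 50 CPM limit. Stab1, 1 of these, was lower in the intermediate high than in the low cells, at 94.8 and 143 CPM against 221 and 279 CPM, and the other was neither higher nor lower. Timd4 and Folr2, which did not reach the limit, had no UMI in the intermediate high cells (3 UMIs would make 10.2 and 4.47 CPM).

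Within the cells, those led by Cxcl2 and those led by Il1b differed in some genes. Leaving out the 9 droplets with neutrophil RNA, 26 and 56 cells had more Cxcl2 than Il1b and 16 and 30 had as much or more Il1b. Of 2574 genes measured, 83 (3.22%) were higher and 33 (1.28%) lower in Cxcl2-led cells, but the summed UMIs were few, 185779 and 441241 in Cxcl2-led and 105106 and 222789 in Il1b-led cells. Among genes chosen here after their values were seen, Ccl3 stood at 312 and 655 CPM in Cxcl2-led cells and 66.6 and 193 CPM in Il1b-led cells, from 58 and 289 against 7 and 43 UMIs. Spp1, encoding osteopontin, stood at 210 and 879 CPM against 47.6 and 171 CPM, Fn1, encoding fibronectin, at 1152 and 1124 CPM against 552 and 408 CPM, and Ccl2 at 764 and 1573 CPM against 238 and 969.5 CPM. Chil3 stood at 10.8 and 54.4 CPM in Cxcl2-led cells and 238 and 175 CPM in Il1b-led cells, Fabp5 at 43.1 and 58.9 CPM against 133 and 256 CPM, and Ifitm3 at 597 and 802 CPM against 1208 and 1243 CPM. C1qa itself stood at 2525 and 2672 CPM in Cxcl2-led cells and 2074 and 2069 CPM in Il1b-led cells. The split used Il1b and Cxcl2 of the same cells.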

How the data were processed

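Single-cell RNA of sorted CD45-positive kidney cells was analysed; the expression of a Visium section was not analysed here. Per the file headers, Cell Ranger 6.1.1 made the deposited matrices, whose values are unnormalized UMI counts. Cell Ranger 6.0, mm10 and Seurat 4.3.0 are listed in the submitters' processing notes. The 2 matrices hold 3315 and 3700 barcodes, with 20743037 and 25314154 UMIs over 32285 genes. No barcode is shared, and each cell's highest hashtag is that of its own hashed sample.

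Cells with at least 500 UMIs, at least 200 genes and at most 10% mitochondrial UMIs were kept (3115 and 3486, medians of 5688 and 6570 UMIs), which removed 414 barcodes. Doublets were left in. Scrublet as implemented in scanpy called 29 cells, 0.439% of those kept, too few for the caller to be taken as having worked, and 6 cells had an unclear hashtag. UMIs were summed per class and hashed sample and scaled to CPM. A gene was measured at 50 CPM or more in at least 1 class in each hashed sample, and counted at 1.5-fold or more the same way in both, after adding 10 CPM, which understates differences of low genes. Named genes are the 15 largest and 15 smallest mean log2 ratios among those counted, without genes of the rule, sex-linked, ribosomal, mitochondrial and unnamed genes and those of antigen receptors, plus the marker genes and members of lists described. Among them, 1 of the 15 smallest is not reported here. Antisense and overlapping genes were not separated.

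The cells, the lists and the rules were chosen with earlier results of these data known. The GEO labels give 1 single-cell sample, the hashed samples share 1 captured library, and the labels do not tie them to animals, so that no test was made; exact 95% intervals (Clopper-Pearson for shares, conditional for ratios) cover counting error only. Where shares of cells holding a UMI were set side by side, cells were thinned to 1000 UMIs. The fold rule was tried on simulated class sums with known fold changes. These held no clumping of UMIs in few cells, so that they cannot speak for genes whose UMIs lie in few cells. Promoter sequences came from RefSeq (GRCm38.p6). Python 3.11.15, numpy 2.4.6, scipy 1.17.1, pandas 2.3.3, scanpy 1.11.5, matplotlib 3.10.9 and, for TMM factors, edgeR 4.0.16 were used. Alternatives covered doublets, depth, thresholds, scaling, pseudocount, filter, fold, each hashed sample alone, and the immediate-early and heat shock level.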

Additional observations from a re-analysis of the deposited data

Results flagged for a closer look

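Lyz1, the lysozyme gene of mouse gut and some macrophages, went opposite ways in the intermediate and the high C1qa range, with both hashed samples of each of these ranges on the same side. In the intermediate C1qa range its mean log2 ratio of Il1b Cxcl2 high over low cells was -2.3, from 6.77 and 13.4 CPM in high cells against 66.0 and 116 CPM in low cells. In the high C1qa range the mean log2 ratio was 1.01, from 72.1 and 151 CPM in high cells against 41.1 and 54.0 CPM in low cells. In the low C1qa range the hashed samples themselves were on opposite sides, with log2 ratios of -0.91 and 1.76, from 8.49 and 85.9 CPM in high cells against 24.6 and 18.3 CPM in low cells. The difference between the ranges was not tested. In the intermediate range Lyz1 no longer passed the 1.5-fold rule with C1qa at 15 to under 30 or as a mean over cells. In the intermediate range the high cells held 2 and 9 UMIs of Lyz1, in 1 and 8 cells, and reads of Lyz1 and its near copy Lyz2 may not be fully told apart.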

How the results depend on the processing

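With the threshold on Il1b and Cxcl2 at 20 per 10000, the cells made up 1.96% and 3.50% of kept cells and 17.4% and 24.02% of the intermediate range, and at 50 per 10000 they made up 0.738% and 1.61%, and 6.55% and 11.02%. With C1qa at 15 to under 30 they were 0.803% and 1.21% of kept cells, and 75 genes (2.76% of 2716 measured) were lower. Counts of higher and lower genes, 92 and 33 in the report (3.36% and 1.2% of 2740 measured), were 55 and 13 at a fold of 2 (2.01% and 0.474% of 2740). They were 144 and 126 as a mean over cells (4.69% and 4.10% of 3070). In cells at or above the median immediate-early and heat shock level they were 60 and 15 (2.25% and 0.561% of 2672). Below it, where only 4 and 5 high cells lie, they were 303 and 304 (10.2% and 10.2% of 2966). With 50 CPM added, 68 genes (2.48% of 2740 measured) were higher and 15 (0.547%) lower. With a 20 CPM filter 118 (2.12% of 5565) were higher and 104 (1.87%) lower, and with no filter beyond 1 UMI 136 (1.02% of 13378) and 210 (1.57%). With 1 hashed sample left out, higher genes reached 222 (7.23% of 3071 measured), since 1 sample then decides each count. Lower genes were then 96 (3.23% of 2974) to 223 (7.26% of 3071).

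The 32 named genes that passed include Il1b and Cxcl2, which chose the cells. Of the 32, Acp5, Ccl8, Cxcl1, Lyz1 and Selenop no longer passed with C1qa at 15 to under 30. Acp5, Areg, F13a1, Hmox1, Lyz1, Ndrg1 and Pck1 no longer passed as a mean over cells. Below the median immediate-early and heat shock level 11 of the 32 passed. Of 770 pairs of 35 genes and 22 settings, 624 were counted as within the counting interval, 137 as beyond it and 9 as changed in sign. Retnlg, with 0 UMIs in low cells, had no interval, and its pairs were counted as within it. A change of sign was counted only for the 32 named genes that passed, and so not for C1qa, C1qb and C1qc. Those 9 included S100a8 at -0.13 with a higher minimum of UMIs per cell and -0.14 without the 9 neutrophil-RNA droplets, and Slc34a1 at 0.21 without tubule-RNA droplets. The rest lay below the median immediate-early and heat shock level: S100a8 at -0.26, S100a9 at -0.064, Gadd45b at -0.27, Cd83 at -0.64, Csrnp1 at -0.29 and F13a1 at 0.019. The cause was not tested. No separate paired analysis was made, since each ratio was already taken between high and low cells of the same hashed sample. Few cells and 1 captured library limit every value.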
